A study of Mus musculus with 4 samples.

Results

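The genes described here are the interferon-induced effector families of eosinophils sorted from the pleural cavity and from the bone marrow of mice injected with tumor cells. They were chosen by their symbols: the Ifit, Ifitm, Oas, Gbp, Parp and Slfn genes, the numbered Ifi genes, the immunity-related GTPases, the RNA helicases Ddx58, Ifih1 and Dhx58, and single response genes such as Bst2, Usp18, Zbp1 and Samhd1. Of the 5807 genes in the table analysed, 51 were members. The authors selected the genes of that table for a difference between the tissues, so being listed is not a finding, and a family member without a row has no direction here. By the same symbols, GENCODE M21 holds 95 protein-coding genes, of which 49 were members with a row. The other 2 members, Ifi30 and Slfn10-ps, are annotated there as a processed transcript and a pseudogene. No value was analysed here for the other 46, among them Isg15, Mx1, Rsad2, Ifit1 and Iigp1.

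All mice were wild type, 6 to 8 weeks old and injected in the pleural space with LLC cells, which derive from a Lewis lung carcinoma of the mouse. By the labels and methods both groups carry this treatment and neither holds cells from uninjected mice, although the study's text also calls the marrow cells naïve. Both tissues were taken at day 2, the pleural cells from lavage fluid, and 2 libraries were made for each. Bone marrow cells were enriched by F4/80 and sorted as living CD45+SiglecF+ cells of high side scatter, while pleural cells were enriched by CD45, and their gate also required CD11b and F4/80 and left out CD11C+ and high Gr1 cells. The labels do not give the strain, the sex or whether animals were pooled. The table gives the authors' mean reads for each tissue and no value for a single library, so there is no spread between replicates, and no difference below was tested. The mean reads of the listed genes summed to 15947438 in the pleural cavity and 11762543 in the marrow cells. Levels are therefore given as reads per 1000000 listed reads (RPM), and ratios as log2 of the pleural cavity level over the bone marrow level. On this scale 2468 of the 5807 listed genes were higher in the pleural cavity and 3339 lower. Within 2-fold lay 1942 listed genes, among them 18 of the 51 members. The paper states that all listed genes passed a fold-change cutoff, and it counts a larger share as downregulated than is lower here. Directions and fold classes below can thus differ from the paper's own, and the reason was not tested. In these bulk samples, fewer cells that express a gene and less RNA per cell cannot be told apart.

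Interferons are cytokines that signal through surface receptors, JAK kinases and STAT proteins. Type I interferon leads to factor complexes that bind the interferon-stimulated response element in promoters, and interferon gamma to dimers that bind gamma-activated sites. The proteins made in answer sense foreign nucleic acid, block virus entry, attack the vacuoles of microbes inside the cell or restrain the signal itself. Several members, such as Parp1, carry a family name but are not known as interferon-induced genes.

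The response element was searched as GAAA, any 2 bases and GAAA again, on both strands of promoter windows from RefSeq on GRCm38.p6, which run from 250 bases before to 50 bases after a gene's start. Of the 51 members, 39 had a window, and 22 of these held the element, which is 56.4%. Over all 27025 genes with a window the share was 3.99%. The longer form, in which another 2 bases and a G follow and which overlaps the shorter form by construction, was found for 14 members, or 35.9%, and in 1.01% of all genes. The gamma-activated site, searched as TTCNNNGAA, was found for 12 members, or 30.8%, and in 9.55% of all genes. The members were picked by family name and many are known targets of interferon, so a high share of the element describes the families and not these samples. No window was matched for Ifi27, Ifi27l2a, Ifi27l2b, Oas2, Gbp9, Dhx58, Parp9, Parp14, Slfn10-ps, Rtp4, Usp18 and Zbp1.

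Stretches of these promoters are shown because members of opposite direction carry the same element. Capitals mark the element or its reverse complement, each stretch is written 5′ to 3′ on the strand of its gene, and all lie upstream of the RefSeq start and outside the exons of GENCODE M21, that of Irgm2 within an intron of a longer Irgm2 model. Gbp2b, Gbp7, Igtp, Irgm2 and Bst2 were more than 2-fold higher in pleural cavity eosinophils, Oas1a, Oas3 and Slfn8 were higher by less than 2-fold, and Ifit3, Ifit3b, Ifit1bl2 and Slfn9 were more than 2-fold lower.
Gbp2b, chr3:142594695-142594734, plus strand: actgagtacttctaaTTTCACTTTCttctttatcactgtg
Gbp7, chr3:142530268-142530307, plus strand: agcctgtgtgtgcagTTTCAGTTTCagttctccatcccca
Igtp, chr11:58199507-58199546, plus strand: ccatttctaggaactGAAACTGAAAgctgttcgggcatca
Irgm2, chr11:58214898-58214937, plus strand: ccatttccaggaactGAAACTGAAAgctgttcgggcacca
Bst2, chr8:71537572-71537617, minus strand: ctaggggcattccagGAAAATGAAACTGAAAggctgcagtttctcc
Oas1a, chr5:120907526-120907560, minus strand: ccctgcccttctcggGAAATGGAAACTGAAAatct
Oas3, chr5:120777710-120777749, minus strand: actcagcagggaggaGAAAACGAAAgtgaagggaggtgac
Slfn8, chr11:83020834-83020873, minus strand: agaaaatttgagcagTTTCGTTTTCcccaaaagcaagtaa
Slfn9, chr11:82991851-82991890, minus strand: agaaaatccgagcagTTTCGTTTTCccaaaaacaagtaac
Ifit3, chr19:34583358-34583431, plus strand: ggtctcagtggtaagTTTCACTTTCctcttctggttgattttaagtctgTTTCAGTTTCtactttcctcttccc
Ifit3b, chr19:34607754-34607827, plus strand: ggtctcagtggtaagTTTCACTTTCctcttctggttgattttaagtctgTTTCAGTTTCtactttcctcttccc
Ifit1bl2, chr19:34640770-34640828, minus strand: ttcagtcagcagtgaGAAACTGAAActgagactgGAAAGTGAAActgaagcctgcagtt

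The stretches of Ifit3 and Ifit3b were identical over all 74 bases and held 2 elements each. Those of Igtp and Irgm2, a pair of GTPase genes that were both higher, matched at 38 of 40 bases. Slfn8 and Slfn9 held the same element, yet Slfn8 was higher and Slfn9 lower in pleural cavity eosinophils. The element was found for 7 of 13 members with a window that were more than 2-fold higher, 10 of 14 that lay within 2-fold and 5 of 12 that were more than 2-fold lower. The gamma-activated site was found for 6, 4 and 2 of the same members. In the window of Ifitm3, Ddx58 and Ifih1 the element lay past the start, and the elements of Gbp2 and Irgm1, though upstream of the RefSeq start, lay in exons that GENCODE M21 begins further upstream, so these stretches are not shown. The letters of the element were not in the window of Ifit2, Slfn2, Samhd1, Oasl2 or Xaf1, among others.

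**Figure D1:**
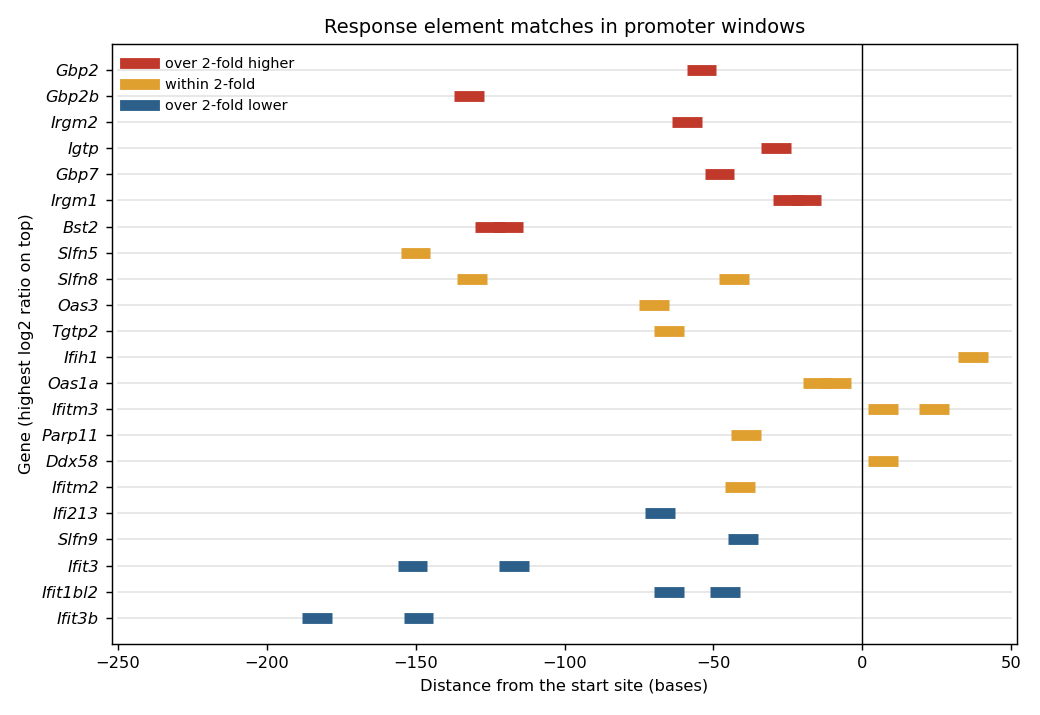
Positions of the interferon-stimulated response element (bars) in the promoter windows of the 22 members that held it, by distance from the start site in bases, with the gene of highest log2 ratio on top. Red marks genes more than 2-fold higher in pleural cavity eosinophils, yellow genes within 2-fold and blue genes more than 2-fold lower; Slfn8 has 2 start sites, and 19 of the 22 genes have a bar wholly upstream of a start.

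Across all members the pleural cavity level was the higher for 36 and the bone marrow level for 15. Of the 51, 20 members, or 39.2%, were more than 2-fold higher in pleural cavity eosinophils, against 16% of all listed genes. More than 2-fold lower were 13 members, or 25.5%, against 50.5% of all listed genes. The median log2 ratio was 0.90 over the members and -1.02 over all listed genes. Listed genes with few reads were mostly lower, so the comparison was repeated among genes of 100 or more mean reads in each tissue, where 18 of 41 members, or 43.9%, and 18.0% of 3586 listed genes were more than 2-fold higher, and 12.2% and 27.8% were more than 2-fold lower.

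The counts depend on how the tissues were scaled. Left unscaled, 32 members were more than 2-fold higher and 13 lower, against 30.5% and 43.2% of the listed genes. With the median ratio of the 1524 genes of at least 1000 reads in both tissues set to 0, 11 were higher and 15 lower, against 9.04% and 57.3%. The 11 that were more than 2-fold higher under every scaling tried were Gbp2, Gbp2b, Gbp9, Ifi27l2a, Ifi27l2b, Igtp, Irgm2, Oasl2, Slfn2, Usp18 and Zbp1. The 13 that were more than 2-fold lower under every scaling tried were all 4 Ifit genes, Ifitm1, Ifitm6, Ifitm7, Ifi213, Parp1, Parp8, Slfn4, Slfn9 and Slfn10-ps. Setting the median ratio to 0 lowers every log2 ratio by 0.44 and turns Ddx58, Ifi27, Parp2 and Parp11 from just above to just below 0.

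**Figure D2:**
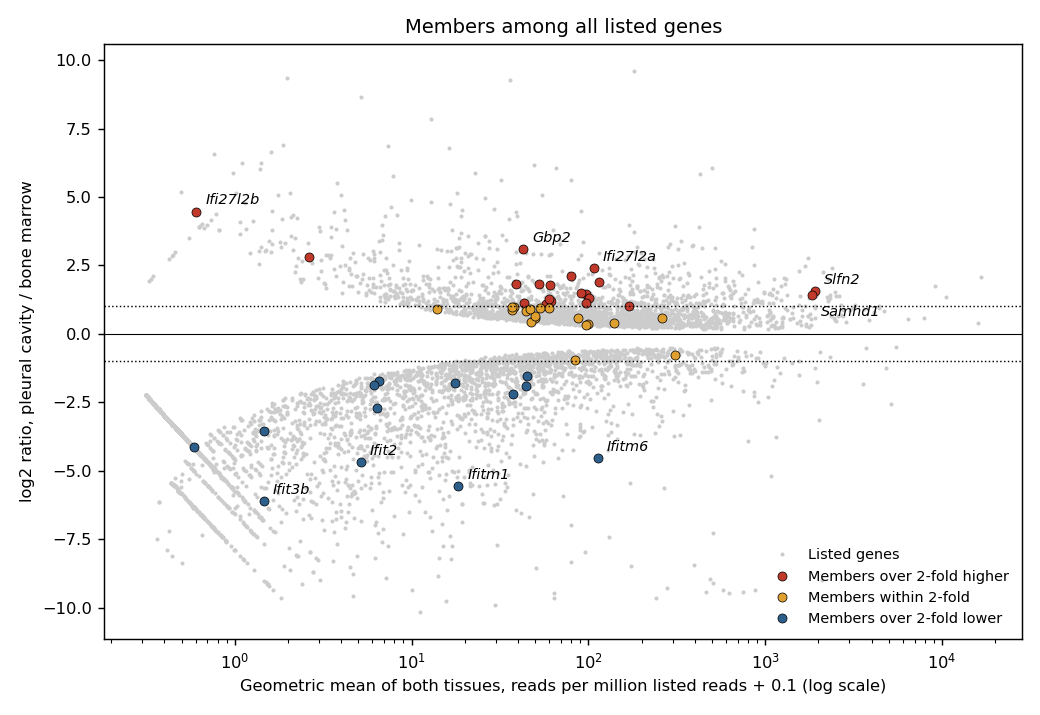
Log2 ratio of the 51 members against their level, the geometric mean of both tissues in RPM plus 0.1 on a log scale, with all 5807 listed genes in grey and dotted lines at 2-fold. Members cluster above the upper line at levels near 100, while the lower members spread down to Ifit3b at -6.12. The listed genes were selected by the authors for a difference, and the cause of the empty band around 0 was not tested. Genes with a mean of 0 are drawn at their bound.

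The members took 1.04% of the listed reads in the pleural cavity and 0.548% in the marrow cells. Samhd1 and Slfn2 held 60.8% of the members' reads in the pleural cavity and 40.9% in the marrow. Samhd1, a phosphohydrolase that depletes deoxynucleotides and so limits reverse transcription, had 48494 mean reads in the pleural cavity and 13242 in the marrow, a log2 ratio of 1.43. Slfn2, a schlafen known for keeping T cells and monocytes quiescent, had 52781 and 13074.7 mean reads, a log2 ratio of 1.57. Without this pair the members' sum gave a log2 ratio of 0.34, which turned to -0.11 with the median ratio of abundant genes set to 0.

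Levels of different genes can be compared only per length, here as RPM per kilobase of the longest transcript. On that scale Slfn2 ranked first among the members in pleural cavity eosinophils at 1989, followed by Samhd1 at 775, Ifi27l2a at 531, Ifitm3 at 470 and Ifitm2 at 360. In bone marrow eosinophils Ifitm6 ranked first at 670.0, followed by Slfn2 at 668, Ifitm2 at 617, Ifitm3 at 315 and Samhd1 at 287. Ifitm6 and Slfn2 are too close in bone marrow to be ordered without replicates. In pleural cavity eosinophils Ifitm6 stood far lower, where its level per length was 28.9 and its rank 23.

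**Figure D3:**
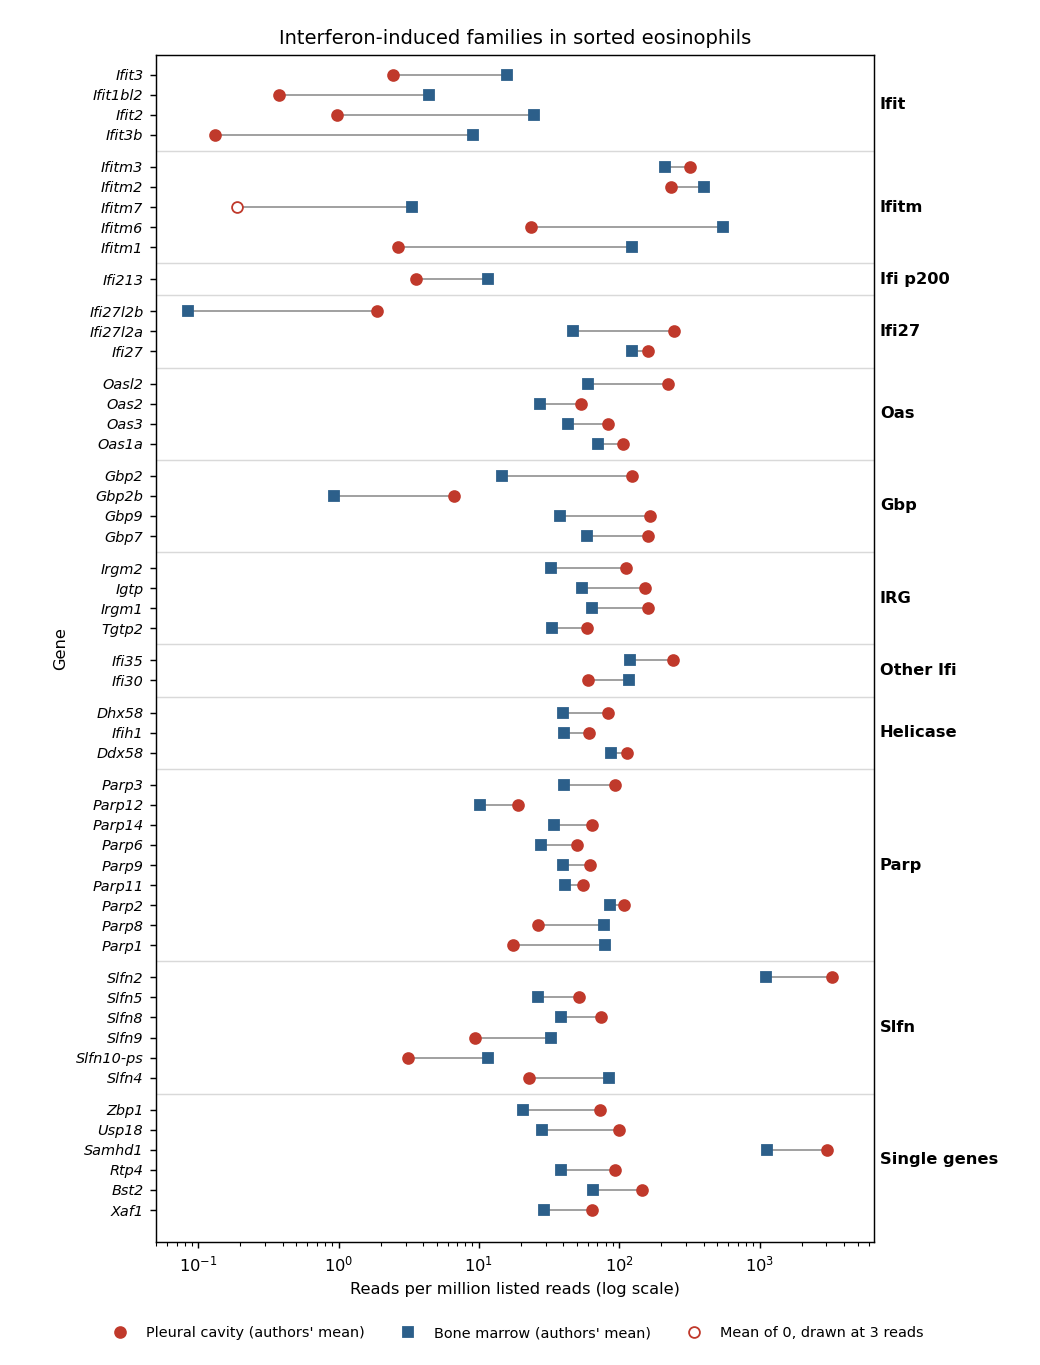
Level of each of the 51 members in pleural cavity (red circles) and bone marrow eosinophils (blue squares), as the authors' mean in RPM on a log scale, grouped by subfamily. Every Gbp, IRG and Oas gene lies to the right in pleural cavity, every Ifit gene lies to the left, and the Slfn and Ifitm genes go both ways; the open circle of Ifitm7 is a mean of 0 drawn at 3 reads.

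The guanylate-binding proteins, large GTPases that coat and break the vacuoles of intracellular microbes, had the highest median among subfamilies of 4 or more genes, at a log2 ratio of 2.47. All 4 listed members were more than 2-fold higher in pleural cavity eosinophils, against 16% of all listed genes. Gbp2, at chr3:142620602-142638008 on GRCm38, had 1981 mean reads in the pleural cavity and 171.5 in the marrow, 124 and 14.6 RPM, which is 8.52-fold higher. Its neighbor Gbp2b had fewer reads, 105.5 and 11, and was 7.07-fold higher. Gbp7 stood in the same cluster with 2549 and 692.5 mean reads and a log2 ratio of 1.44, which was within 2-fold when the median ratio of abundant genes was set to 0, and Gbp9, in a separate cluster on chromosome 5, had 2626 and 448 mean reads and a log2 ratio of 2.11. Reads of Gbp7 and Gbp9 were partly divided between similar genes. No value was analysed here for Gbp3, Gbp4, Gbp5, Gbp6, Gbp8 and Gbp10.

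The immunity-related GTPases, which act with the guanylate-binding proteins at such vacuoles, were also all higher, with a median log2 ratio of 1.402. Irgm1, a regulator of the family, had 2561 mean reads in the pleural cavity and 753 in the marrow, a log2 ratio of 1.33. Irgm2 had 1781 and 384 mean reads and a log2 ratio of 1.77, and Igtp, known as Irgm3, had 2421 and 642 and a log2 ratio of 1.48. Tgtp2 had the lowest log2 ratio of the 4, 0.82. All 4 had fractional means, which arise when reads are divided between similar genes, and the annotated gene bodies of Igtp and Irgm2 overlap on chromosome 11, so their separate values are uncertain. Summed, the Gbp and IRG genes took 938 RPM in the pleural cavity and 297 in the marrow, a log2 ratio of 1.66.

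The oligoadenylate synthetases, which make short oligoadenylate messengers when they bind double-stranded RNA, were all 4 higher, by a median of 0.95 on the log2 scale. Oasl2, an Oas-like gene, led with 3534 mean reads in the pleural cavity and 706 in the marrow, a log2 ratio of 1.88. Oas2, Oas3 and Oas1a lie together within 177 kb of chromosome 5 and had log2 ratios of 0.97, 0.94 and 0.58. Oas1a had the most reads of these 3, at 1694 and 835, and Oas2 had 849.5 and 320.5. Means were fractional for Oas1a and Oas3, so their separate values are uncertain. No value was analysed here for the other 7 annotated Oas genes.

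The RIG-I-like helicases, sensors of viral RNA in the cytoplasm, were all 3 higher. Only Dhx58 was past 2-fold, 1 of 3 or 33.3%, against 16% of all listed genes. Dhx58, which encodes the regulator LGP2, had 1333 and 467 mean reads and a log2 ratio of 1.07. Ifih1, encoding MDA5, had 977.5 and 477.5 mean reads and a log2 ratio of 0.59, and Ddx58, encoding RIG-I, had 0.36. Mean reads of Ddx58 were 1799 in the pleural cavity and 1036.5 in the marrow. With the median ratio of abundant genes set to 0, Dhx58 had 0.63, Ifih1 had 0.15 and Ddx58 turned to -0.087.

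Each of the 6 listed single response genes was more than 2-fold higher in pleural cavity eosinophils, against 16% of all listed genes. Their median log2 ratio was 1.36. No value was analysed here for Rnf213, Rsad2 and Samd9l. Zbp1, a sensor of left-handed nucleic acid that can start necroptosis, had 1162 and 241.5 mean reads and a log2 ratio of 1.83. Usp18, which removes Isg15 from proteins and restrains type I interferon signaling at its receptor, had 1581 and 329.5 mean reads and a log2 ratio of 1.82. Rtp4 had a log2 ratio of 1.28, Bst2, which tethers budding viruses to the cell surface, had 2301.5 and 767.5 mean reads and a log2 ratio of 1.15, and Xaf1, an antagonist of the apoptosis inhibitor XIAP, had 1.14. Bst2, Rtp4, Xaf1 and Samhd1 were within 2-fold when the median ratio of abundant genes was set to 0.

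The 3 genes of the Ifi27 cluster, which encode small hydrophobic membrane proteins, lie within 23.0 kb of chromosome 12 and differed widely. Ifi27l2a had 3922 mean reads in the pleural cavity and 547.5 in the marrow, 5.28-fold higher. Ifi27 had 2558 and 1440 mean reads and a log2 ratio of 0.39. Ifi27l2b rested on 30 reads against 1, a log2 ratio of 4.47 with a counting interval from 1.88 to 9.82. That interval is an exact 95% binomial one on the means taken as whole counts, and it covers counting error only. Of the other Ifi genes, Ifi35 had 3854 and 1407.5 mean reads and a log2 ratio of 1.01, and Ifi30, a thiol reductase of the lysosome used in antigen processing, had 962.5 and 1374 mean reads and a log2 ratio of -0.95. Ifi213, of the p200 family of nucleic acid sensors, was lower at -1.71 on 56.7 and 137 mean reads. No value was analysed here for the other 10 annotated p200 genes, so Ifi213 does not stand for that family.

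The Ifit genes, whose proteins bind viral RNA and block its translation, went the other way, and all 4 were more than 6-fold lower in pleural cavity eosinophils. Of all listed genes 50.5% were more than 2-fold lower, and their lower quartile was a log2 ratio of -2.91. They lie together within 90.05 kb of chromosome 19. Ifit2 had 15.5 mean reads in the pleural cavity and 292.5 in the marrow, a log2 ratio of -4.68, with no sign of divided reads. Ifit3 had 38.9 and 185.6 mean reads and a log2 ratio of -2.69, and Ifit1bl2 had 5.995 and 52.1 and a log2 ratio of -3.56. Ifit3b had 2.1 and 107.4 mean reads, a log2 ratio of -6.12 with a counting interval from -9.24 to -4.29. Means were fractional for Ifit3, Ifit3b and Ifit1bl2, and Ifit3 and Ifit3b share their promoter stretch. Per kilobase, the marrow levels of Ifit3 and Ifit2 were 9.04 and 6.51 RPM, beside 9.12 for Oas3 and 6.88 for Oas2.

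The Ifitm genes, which encode membrane proteins that hinder the fusion of enveloped viruses, split. Ifitm3 had 5080.5 mean reads in the pleural cavity and 2514 in the marrow, a log2 ratio of 0.58, and Ifitm2 had 3760.5 and 4752.5, a log2 ratio of -0.78. Ifitm6 had 375 and 6407.5 mean reads, 23.2-fold lower in pleural cavity, and Ifitm1 had 42 and 1453, 46.9-fold lower. These 4 lie within 63.1 kb of chromosome 7, so listed genes of 1 cluster ranged over log2 ratios from -5.55 to 0.58. Ifitm7, on chromosome 16, had a mean of 0 in the pleural cavity and 39.1 in the marrow, at least 17.7-fold lower against a floor of 3 reads. Together the Ifitm genes took 581 RPM in the pleural cavity and 1289 in the marrow.

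The schlafens, regulators of proliferation and of transfer RNA, split as well, within 239 kb of chromosome 11. Besides Slfn2, Slfn5 and Slfn8 were higher, at log2 ratios of 0.99 and 0.96, with 829 against 308 and 1187 against 451 mean reads. Slfn4 had 364 mean reads in the pleural cavity and 999.8 in the marrow, a log2 ratio of -1.90, and Slfn9 and Slfn10-ps were lower at -1.80 and -1.89, the latter on 50.15 and 136.7 mean reads. In order along the chromosome Slfn5 was higher, Slfn9 lower, Slfn8 higher, Slfn10-ps lower, Slfn2 higher and Slfn4 lower, so the listed genes alternated. No value was analysed here for Slfn1, Slfn3, Slfn14 and Slfnl1, so listed genes in a row need not be direct neighbors. All 6 had fractional means, so their separate values are uncertain.

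Among the ADP-ribosyltransferases, those known to answer interferon were all higher, each by less than 2-fold. Parp12, with 301 and 119 mean reads, and Parp14 had a log2 ratio of 0.90 each, Parp9 had 0.64 and Parp11 had 0.42. Parp9 and Parp14 lie close to each other on chromosome 16 and had 993 and 1017 mean reads in pleural cavity. The 5 others split. Parp3, which acts at DNA breaks, had 1491 and 474 mean reads and a log2 ratio of 1.21. Parp6 had 0.86, and Parp2 had 1712.5 and 1019 mean reads and 0.31. Parp8 had 420.5 and 909 mean reads and a log2 ratio of -1.55, and Parp1, the main enzyme of the DNA damage response, had 278.5 against 938 mean reads and a log2 ratio of -2.19.

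**Figure D4:**
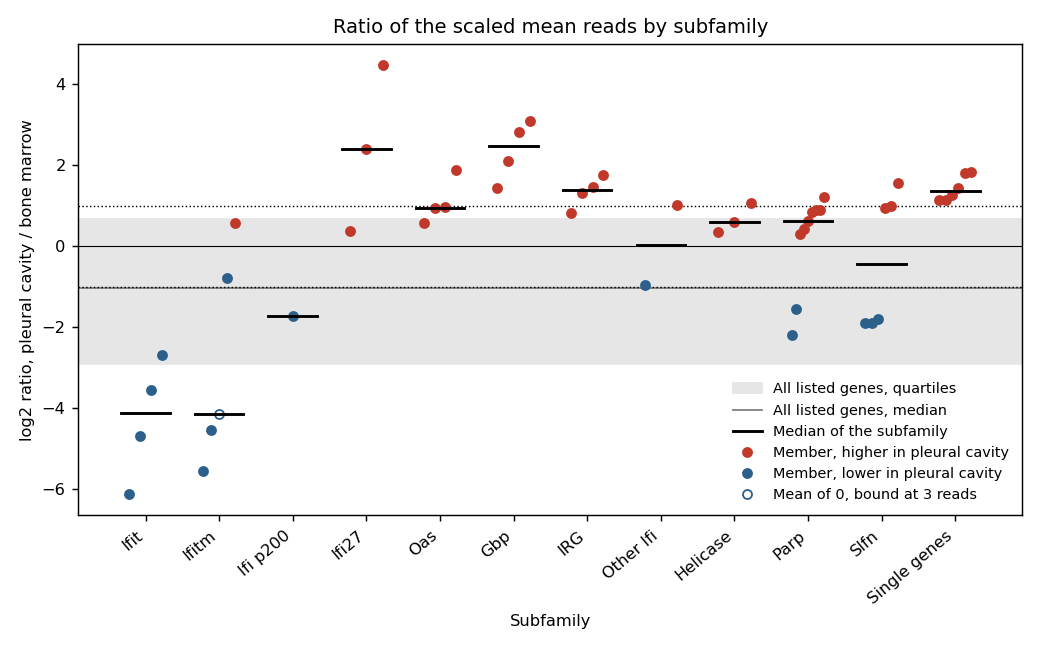
Log2 ratio of each member by subfamily (red circles higher, blue circles lower in pleural cavity, black bars the medians), with the median and quartiles of all listed genes in grey and dotted lines at 2-fold. The Gbp, IRG, Oas, Ifi27, helicase and single genes lie above 0, the 4 Ifit genes lie between -6.12 and -2.69, and the open circle is the bound of Ifitm7.

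The genes that carry the interferon signal were taken from a list of 135 pathway genes, members aside, which also held 71 other response genes. Of the 135, 63 were listed, 34 of them other response genes. Of the 63, 18, or 28.6%, were more than 2-fold higher, against 16% of all listed genes. More than 2-fold lower were 11, or 17.5%, against 50.5%. Which count was larger depended on scaling, with 37 higher and 8 lower unscaled, and 8 higher and 16 lower with the median ratio set to 0. No listed gene was among the 11 interferon genes. Of the receptor chains, Ifnar1 had a log2 ratio of 0.68 and Ifnar2 of -0.87, while Il10rb, which pairs with the lambda interferon and interleukin 10 receptors, had 1.21. Ifnlr1 had a mean of 0 in the pleural cavity and 79.5 in the marrow, at least 35.9-fold lower against a floor of 3 reads. Jak1 had a log2 ratio of 0.46, Stat2 of 0.67, Stat5b of 0.43 and Stat6, the factor of interleukin 4 signaling, of 1.595. Of the interferon regulatory factors, Irf9, Irf1, Irf2 and Irf5 had log2 ratios of 1.11, 1.05, 1.23 and 1.28. Irf7 and Irf3 had 0.64 and 0.53, and Irf8, a factor of monocyte and dendritic cells, had -2.31. Irf2bp2, which encodes a binding protein of Irf2 and not a factor of this family, had -0.96. None of these 8 genes was more than 2-fold higher with the median ratio set to 0.

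Inhibitors of the pathway were listed for 5 genes. Socs1, which blocks JAK kinases, had 719.5 and 190.5 mean reads and a log2 ratio of 1.48. Socs3 had 1.11, and the phosphatase genes Ptpn1 and Ptpn6 had 1.37 and 1.04, so 4 of the 5, or 80.0%, were more than 2-fold higher, against 16% of all listed genes, and Pias1 had 0.33. With the median ratio set to 0, Socs1 alone stayed past 2-fold at 1.03, Ptpn1, Socs3 and Ptpn6 had 0.93, 0.67 and 0.59, and Pias1 turned to -0.11. Of 7 listed sensors and adaptors upstream of interferon, 4, or 57.1%, were more than 2-fold lower, a share near the 50.5% of all listed genes. Tlr7, the endosomal receptor of single-stranded RNA, had 307 against 2138 mean reads and a log2 ratio of -3.24, and Tlr8, Ikbke and Cgas had -2.17, -2.03 and -1.59. The adaptor genes Myd88, Traf3 and Ticam1 lay between 0.63 and 0.80.

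**Figure D5:**
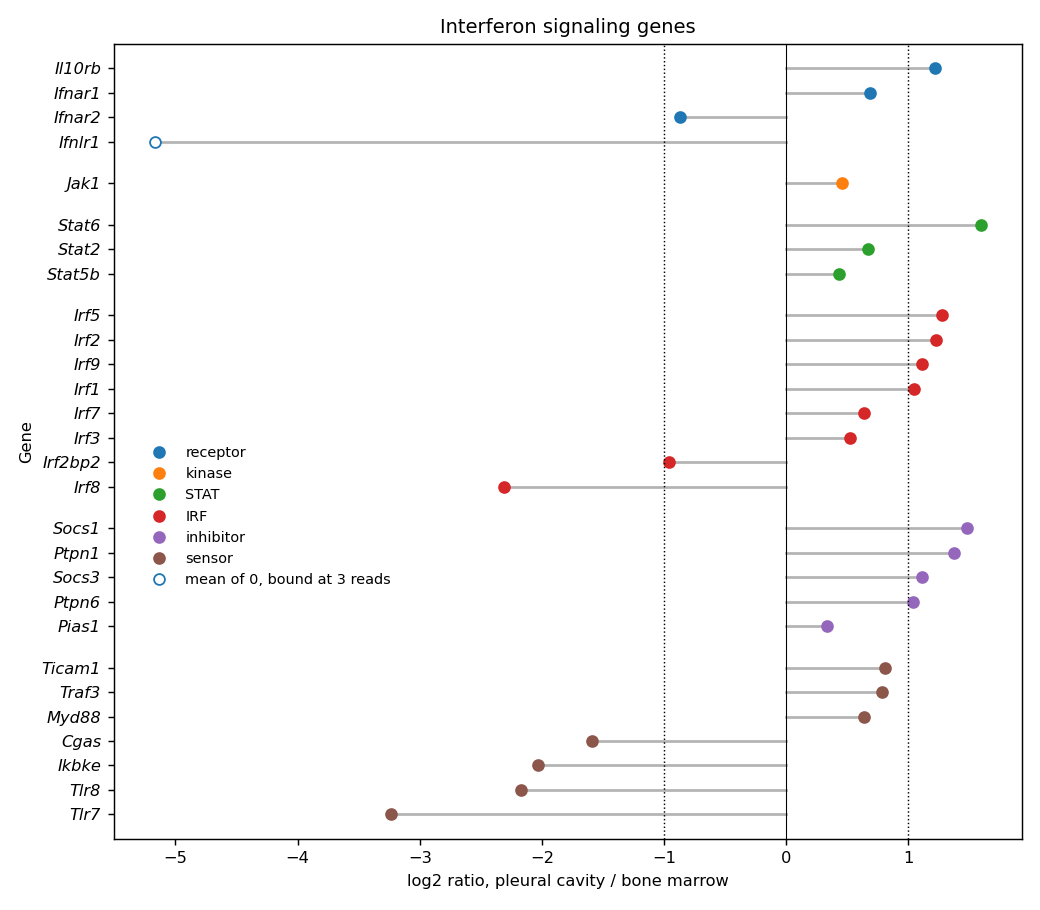
Log2 ratio of the named genes of interferon signaling by role (colors), with dotted lines at 2-fold. The 5 inhibitors lie above 0, though Pias1 turns below it with the median ratio set to 0, and 4 of 7 sensors, a share near that of all listed genes, lie below the lower line at -1.59 to -3.24; the open circle of Ifnlr1 is a bound against 3 reads.

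Of the 71 other interferon response genes outside the families, 34 were listed, and these are part of the 63 counted above. Of the 34, 8, or 23.5%, were more than 2-fold higher, against 16% of all listed genes. More than 2-fold lower were 5, or 14.7%, against 50.5%, and the median log2 ratio of the 34 was 0.67. With the median ratio set to 0 these counts were 6 and 8. Lgals3bp, a secreted galectin-binding glycoprotein, had 13484 and 1103 mean reads and a log2 ratio of 3.17. Phf11b, Phf11a, Trex1, the exonuclease that clears cytoplasmic DNA, and Wars had 2.32, 2.05, 2.01 and 1.80, and Trim34a, Tmem140 and Nlrc5, an activator of class I genes, had 1.46, 1.39 and 1.05. The lower genes were Plscr1 at -2.57, Sp140 at -1.54, Ms4a6b at -1.18, Lap3 at -1.13 and Ly6e at -1.05. The genes of antigen processing lay within 2-fold, with B2m at 0.94, Psmb10 at 0.92, Tapbp at 0.88, Tap2 at 0.58, Tap1 at 0.50 and Psmb8 at 0.44.

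Markers of other cells also differed between the tissues. All 11 markers of neutrophils and their precursors were listed and more than 2-fold lower, and their summed level was 159.5 RPM in the pleural cavity and 102835 in the marrow. Of all listed genes 50.5% were more than 2-fold lower. Of 4 basophil and mast cell markers all were lower, with sums of 858 RPM in bone marrow and 1.98 in pleural cavity. Macrophage markers were listed for 6 of 11 and summed to 1990 RPM in bone marrow and 6697 in pleural cavity. Of these sums Adgre1 held 970 and 4635 RPM. Its product F4/80 was used to enrich the marrow cells and in the sorting gate of the pleural cells only. Log2 ratios were 2.26 for Adgre1, 1.94 for Csf1r, 1.77 for C1qb and 0.92 for C1qa, and -0.73 for Apoe and -1.27 for Mrc1. None of these was at 0 in either tissue. Of 6 mesothelial and tumor cell markers 2 were listed, and they went opposite ways. Krt18, a keratin, had 1918 against 518 mean reads and a log2 ratio of 1.45, and Col1a1 had -3.85. Of 4 B cell markers only Ms4a1 was listed, at 1.34. Lower were the monocyte marker Ly6c2 at -5.62, from 1879 RPM in the marrow, and the T and NK cell markers Nkg7, Ncr1 and Cd3d at -6.98, -2.47 and -2.38. Few reads lay behind the dendritic cell marker Siglech, with 0.5 against 34, and the erythroid marker Klf1, with 1.5 against 163. The eosinophil markers Ccr3, Siglecf and Gata1 had log2 ratios of 1.54, 1.15 and 1.11, while Alox15 had -1.85 and the granule genes Prg2 and Epx had -8.99 and -9.11. The part of other cells in the ratios of the members was not tested.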

How the data were processed

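RNA of sorted eosinophils was sequenced as 2 libraries for each tissue, and samples were grouped by their titles. Per the labels and the study's methods, the authors used HISAT2 2.1.0 and Bowtie2 2.2.5 for alignment (genome GRCm38) and RSEM 1.2.8 for the estimated counts of each gene. The deposited values used here are the authors' means of these estimated counts in each tissue. The table's columns of the authors' own fold changes, p-values and q-values were not used. The depth of each library is unknown, and only sums over the listed genes are given. No values per library were given, so no count test could be run.

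Mean reads were divided by the tissue's sum over listed genes. The log2 ratio has no pseudocount, and a mean of 0 was set to 3 reads. A member was counted past 2-fold. A mean of the 2 libraries whose doubled value was not whole, within a tolerance of 0.01, was read as divided between genes, which held for 25.6% of listed genes. Gene positions and transcript lengths come from GENCODE M21, an earlier release than the authors' on the same assembly, and promoters from RefSeq.

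The members, gene lists, markers and tests were chosen with earlier results of these data known. The pattern for Ifit also takes in the Ifitm genes, which were given a subfamily of their own after the table was seen and left out of the pathway list. Each listed member is named, with mean reads for the 2 of most reads and the 2 of largest ratio in each direction per subfamily. Of the pathway list, genes past 2-fold and the receptors, STAT and IRF genes are named, some items aside that are not reported here; the genes of antigen processing and the adaptors were named after their values were seen. Alternatives covered scaling, read filters, divided reads, fold threshold, pseudocount and membership. The ratio was tried on simulated counts whose changed genes were set higher or lower at random. That run could not check the scaling for differences as one-sided as those of the listed genes. Software was scipy 1.17.1, numpy 2.4.6 and pandas 2.3.3 in Python 3.11.15, with matplotlib 3.10.9 for plots.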

Additional observations from a re-analysis of the deposited data

How the results depend on the processing

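With 20 members more than 2-fold higher and 13 lower as reported, the higher count was 32 unscaled and 11 with the median ratio of abundant genes set to 0. At 3-fold 9 members were higher and 12 lower, so the lower members were then more numerous. Among genes without divided reads 13 members were higher and 5 lower, but this setting left out the 22 of 51 members with divided reads. The shares of all listed genes at 3-fold and without divided reads were not computed. The members' median log2 ratio was 1.34 unscaled, 0.45 with the median ratio set to 0 and 0.73 when the most abundant genes were left out of the totals, which also put the members' share at 1.2% in pleural cavity and 0.706% in bone marrow. Pathway genes more than 2-fold higher numbered 37 unscaled and 8 with the median ratio set to 0. The sign turned for the median of the Slfn genes, 0.015 unscaled, for that of Ifi30 and Ifi35, -0.41 with the median ratio set to 0 and -0.13 without the most abundant genes, and, with the median ratio set to 0, for Ddx58 at -0.087, Ifi27 at -0.054, Parp11 at -0.023, Parp2 at -0.13 and, among named pathway genes, Pias1 at -0.11, Stat5b at -0.014 and Psmb8 at -0.0068; the members' sum without Samhd1 and Slfn2 turned to -0.11. These follow from the shift of every ratio by the same amount. Leaving out the Parp genes or, chosen after seeing the data, the Ifitm genes, or keeping genes with more than 3 reads in both tissues, left the counts of members within 1.5 times of those reported. No paired analysis was possible because the table holds means per tissue, and leaving out single libraries was not possible for the same reason. Fold changes on few reads, as for Ifit3b and Ifi27l2b, are imprecise, and the spread between mice is unknown.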
